A study of Homo sapiens with 8 samples.

Results

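A set of 9 genes of the plasminogen activator system and the serpin family were followed by RNA sequencing in human lung cancer cells given a pulse of an inhibitor of the mitotic kinase MPS1: PLAU, PLAT, PLAUR, SERPINE2, SERPINB2, SERPINB1, SERPINB3, SERPINB4 and SERPINB8. They were taken by their symbols from the count tables, and all 9 were found once in each, among 46427 genes listed for NCI-H1944 and 61271 for NCI-H647. PLAUR is neither an activator nor a serpin but the receptor of the PLAU product. Both NCI-H1944 and NCI-H647 are established human lung cancer cell lines, and their genotype is labelled WT. The 4 groups were NCI-H1944 given the MPS1 inhibitor BAY-1217389 (MPS1i), NCI-H1944 given DMSO, NCI-H647 given MPS1i and NCI-H647 given DMSO, with 2 libraries each. The dose was 100 nM, exposure to drug or DMSO lasted 48 hours, and cells grew for 24 hours more after it was removed. MPS1, encoded by TTK, is a kinase of the spindle checkpoint, and cells that divide without its activity missegregate chromosomes.

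Urokinase (PLAU) and tissue plasminogen activator (PLAT) are secreted serine proteases that cut plasminogen to plasmin, which digests fibrin and extracellular matrix. The urokinase receptor (PLAUR) holds urokinase at the cell surface. Serpins are inhibitors that a target protease cleaves and is then trapped by: SERPINE2 (protease nexin-1) blocks thrombin and both activators outside the cell, while the clade B serpins lack a classical secretion signal and act largely inside cells. Tumour and stromal cells use the system in invasion and tissue repair.

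The libraries held 38904473 to 43661342 counts in NCI-H1944 and 13358514 to 19550859 in NCI-H647, so that genes of low count were measured less precisely in NCI-H647. Levels below are given in CPM, a gene's count relative to its library's scaled total, with scaling done within each line, and changes are log2 fold changes of MPS1i over DMSO ± the standard error of the fit. A gene was called where its adjusted p was under 0.05 in edgeR's quasi-likelihood test over all genes that passed a filter on low counts. That filter asks for enough counts in 2 libraries, so a gene can pass through 1 group alone. TTK fell in both lines, by 0.71 ± 0.08 on the log2 scale in NCI-H1944 and by 0.72 ± 0.04 in NCI-H647. Of 6 epithelial markers 5 had over 10 counts in a library in each line. Their summed level was 4792 to 4951 CPM after MPS1i and 4128 to 4135 CPM after DMSO in NCI-H1944, against 635 to 640 CPM after MPS1i and 875 to 897 CPM after DMSO in NCI-H647. Most of these sums was KRT8, KRT18 and KRT7. CDH1 (E-cadherin) had 5 and 9 counts after MPS1i and 3 and 8 after DMSO in NCI-H647, against 1304 to 1688 in NCI-H1944. While the sum was lower after MPS1i in NCI-H647, KRT19 was called higher there (adjusted p = 0.0265). KRT19 was listed at 0 in NCI-H1944, and so were the lung lineage genes NKX2-1 and SFTPB. Several members are also made by fibroblasts, endothelium or leukocytes. The 5 fibroblast markers summed to 45.7 and 46.1 CPM after MPS1i and 29.5 and 33.4 CPM after DMSO in NCI-H1944, with PDGFRA at 0, and to 16.7 and 17.6 CPM after MPS1i and 17.8 and 19.3 CPM after DMSO in NCI-H647. The 3 endothelial markers summed to 1.92 and 1.93 CPM after MPS1i and 0.787 and 0.792 CPM after DMSO in NCI-H1944, and to 24.1 and 27.9 CPM after MPS1i and 29.8 and 32.6 CPM after DMSO in NCI-H647. Most of the NCI-H647 sum was CDH5 (23.4 and 19.3 CPM after MPS1i, 27.3 and 28.5 CPM after DMSO), which was called lower. PECAM1 went the other way there (4.43 and 4.80 CPM after MPS1i, 2.35 and 3.95 CPM after DMSO) and was not called, and VWF had at most 3 counts. The 6 leukocyte markers summed to at most 4.70 CPM in any library, with PTPRC and MPO among those at 0 in NCI-H1944 and MPO at 0 in NCI-H647. The part of these markers in the results was not tested. In bulk RNA, fewer cells that make a transcript and less of it per cell cannot be told apart.

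Most members lie apart in the genome (GRCh38, as the NCI-H647 table gives it). PLAU spans chr10:73909177-73917496, PLAUR chr19:43646095-43670547 and SERPINE2 chr2:223975045-224039318. SERPINB1 spans chr6:2832332-2841959. PLAT is placed where it is described, and the remaining 4 members share a serpin cluster on chromosome 18, where SERPINB4 spans chr18:63637259-63644256, SERPINB3 chr18:63655197-63661893, SERPINB2 chr18:63871692-63903888 and SERPINB8 chr18:63970029-64019779. The whole of SERPINB3 lies within the span of SERPINB11 on the opposite strand, and SERPINB11 had 0 counts in every library. PLAU shares 7528 bases with the antisense gene C10orf55, which had 18 and 9 counts after MPS1i and 23 and 25 after DMSO in NCI-H647, where PLAU had 4228 or more. SERPINB8 shares 11746 bases of its span with HMSD on the same strand, which had 14 and 21 counts after MPS1i and 44 and 20 after DMSO in that line.

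The upstream sequences below carry a pair of facts used later: which members hold the core of an AP-1 site just before their RefSeq start, and how alike SERPINB3 and SERPINB4 are. AP-1 is the FOS and JUN family of transcription factors. Each sequence is the 250 bases before an annotated start, 5′ to 3′ on the gene's strand, from RefSeq (GRCh38.p14), and 8 of the 9 members were looked up in that table. Capitals in the first 3 mark matches to TGANTCA. The windows are chr19:43670170-43670419 (minus strand), chr18:63887455-63887704 (plus strand) and chr18:63969831-63970080 (plus strand). The RefSeq start lies inside the span given above for these genes, 378 bases downstream of the start in the NCI-H647 table for PLAUR, 16013 for SERPINB2 and 52 for SERPINB8.
PLAUR: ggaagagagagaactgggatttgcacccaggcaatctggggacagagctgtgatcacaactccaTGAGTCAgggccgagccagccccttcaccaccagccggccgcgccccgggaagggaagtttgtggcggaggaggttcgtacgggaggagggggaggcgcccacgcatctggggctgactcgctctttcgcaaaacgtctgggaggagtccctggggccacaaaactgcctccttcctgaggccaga
SERPINB2: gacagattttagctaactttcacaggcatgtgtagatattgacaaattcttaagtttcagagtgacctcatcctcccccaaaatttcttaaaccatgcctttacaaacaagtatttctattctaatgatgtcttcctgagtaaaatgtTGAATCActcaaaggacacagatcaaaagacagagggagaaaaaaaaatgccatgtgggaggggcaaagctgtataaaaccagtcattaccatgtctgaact
SERPINB8: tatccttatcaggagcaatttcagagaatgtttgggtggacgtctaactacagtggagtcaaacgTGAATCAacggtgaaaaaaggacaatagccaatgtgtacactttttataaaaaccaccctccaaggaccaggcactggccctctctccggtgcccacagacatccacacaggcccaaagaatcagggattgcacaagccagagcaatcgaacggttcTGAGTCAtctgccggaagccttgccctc

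The motif TGANTCA, read on both strands, was in 3 of the 8 members looked up (PLAUR, SERPINB2 and SERPINB8) and in 6.57% of 35116 promoter windows of the same length. SERPINB8 had it at 2 places. TATAAA was found upstream of SERPINB2, 30 to 25 bases before the start as annotated, and of SERPINB8, against 10.7% of all windows. GGGCGG, the core of an SP1 site, was found for PLAU, SERPINE2 and SERPINB1, against 42.6% of all windows. The cores of an interferon response element and of a kappa B site, as spelled for the search, were in 3.02% and 1.40% of all windows and in none of the 8 members. No motif overlapped another of a different kind in the printed windows. A match is a string of letters and does not show that a factor binds there.

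SERPINB3 and SERPINB4 are neighbours that arose by duplication. Capitals in the next pair of sequences mark the bases that differ, in windows chr18:63661894-63662143 and chr18:63644257-63644506 (both on the minus strand).
SERPINB3: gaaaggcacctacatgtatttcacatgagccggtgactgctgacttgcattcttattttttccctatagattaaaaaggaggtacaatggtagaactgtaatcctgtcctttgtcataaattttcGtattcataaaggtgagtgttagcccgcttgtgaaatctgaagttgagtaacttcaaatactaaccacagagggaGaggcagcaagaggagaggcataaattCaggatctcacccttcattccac
SERPINB4: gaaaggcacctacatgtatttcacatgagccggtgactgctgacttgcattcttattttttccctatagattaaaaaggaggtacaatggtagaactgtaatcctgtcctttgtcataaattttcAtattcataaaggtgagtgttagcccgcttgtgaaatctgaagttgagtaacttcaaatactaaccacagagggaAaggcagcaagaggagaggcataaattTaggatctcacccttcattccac
The upstream windows were identical at 247 of 250 bases (98.8%). For the transcripts, 23.9% of the 50-base windows of SERPINB3-201 also occur in a SERPINB4 transcript. For SERPINB4-201, 24.3% occur in a SERPINB3 transcript (GENCODE 29). Each differing base can break up to 50 such windows, so these shares cannot be set against the identity by base. How the submitters' counting treated reads that fit both genes is not given in the sources used here, so the division of counts between this pair is uncertain.

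Across the set, the activators, the receptor and SERPINE2 were higher after MPS1i in both lines, and no member was called lower in either, where 12.4% of genes tested in NCI-H1944 and 27.0% in NCI-H647 were. In NCI-H1944 6 of the 8 members tested were called, all higher, against a background of 26.0% of 16738 genes called in either direction and 13.6% called higher. SERPINB2 was too low to be tested there. In NCI-H647 7 of 9 were called, all higher, against 54.4% of 15049 genes in either direction and 27.3% higher. PLAU, PLAUR, PLAT, SERPINE2 and SERPINB4 were called higher in both lines, which is 5 of the 8 members tested in both, where 9.47% of 12887 genes were. SERPINB2 and SERPINB4 had under 10 counts in each DMSO library of NCI-H647. They passed the filter there only through the MPS1i libraries, where they were high, so they could not readily have been called lower. Both are counted in the 7 of NCI-H647, and SERPINB4 in the 5. Among the members tested, the 2 MPS1i libraries lay outside the range of the 2 DMSO libraries in CPM for 7 of 8 in NCI-H1944, against 61.0% of all genes tested, and for 9 of 9 in NCI-H647, against 76.3%. Such a separation was thus common over all genes, and several members that showed it did not pass the test.

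**Figure D1:**
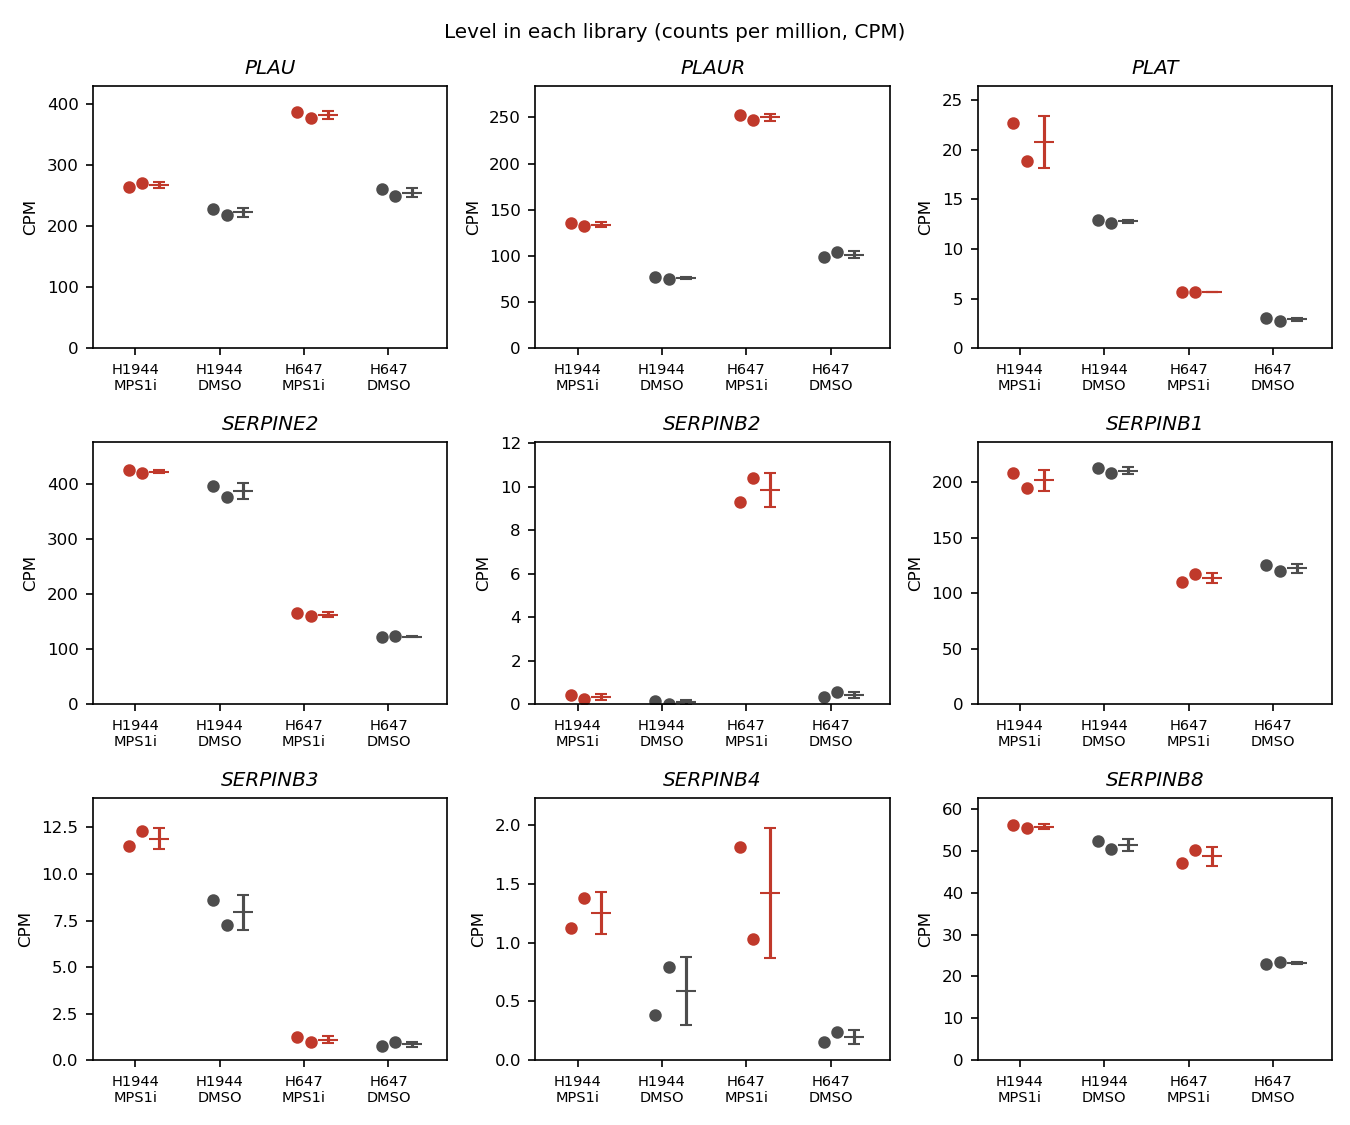
Level of each member in CPM in each library, by line and treatment, on linear axes from 0; bars show the mean and SD of 2 libraries. PLAUR stood at 247 and 253 CPM in NCI-H647 after MPS1i and at 98.3 and 104 CPM after DMSO, and SERPINB2 was near 0 in all groups but NCI-H647 after MPS1i.

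Both activators rose. PLAU, which encodes urokinase, had 263 and 270 CPM in NCI-H1944 after MPS1i and 227 and 217 CPM after DMSO. The ranges did not overlap, and the rise was small (log2 0.26 ± 0.03, a fold of 1.20, adjusted p = 2.30e-05). In NCI-H647 PLAU had 386.4 and 376.8 CPM after MPS1i and 259.5 and 249.3 CPM after DMSO (log2 0.58 ± 0.04, adjusted p = 3.31e-09). The raw counts of PLAU there were 5325 and 5107 after MPS1i and 4976 and 4228 after DMSO, close to each other because the treated libraries were less deep. PLAT, the tissue-type activator best known from fibrinolysis, spans chr8:42174718-42207709 and was a low gene in both lines. It had 22.7 and 18.9 CPM after MPS1i in NCI-H1944 and 12.9 and 12.7 CPM after DMSO (log2 0.70 ± 0.10, adjusted p = 3.42e-05). In NCI-H647 it had 5.66 and 5.68 CPM after MPS1i and 3.03 and 2.77 CPM after DMSO, from 78 and 77 counts after MPS1i and 58 and 47 after DMSO (log2 0.96 ± 0.19, adjusted p = 0.000542). Every treated library was above every control library for both activators in both lines.

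PLAUR, the receptor gene, had larger fold changes than the gene of its ligand in both lines. It had 136 and 132 CPM in NCI-H1944 after MPS1i and 76.7 and 75.1 CPM after DMSO, a fold of 1.76 (log2 0.82 ± 0.04, adjusted p = 9.15e-11). The NCI-H647 libraries held 253 and 247 CPM after MPS1i and 98.3 and 104 CPM after DMSO, a fold of 2.48 (log2 1.31 ± 0.04, adjusted p = 2.41e-12). The libraries of a group differed by at most a few CPM, so that the groups stood well apart in both lines. The order of the 4 groups in PLAUR, from the lowest, was NCI-H1944 after DMSO, NCI-H647 after DMSO, NCI-H1944 after MPS1i and NCI-H647 after MPS1i. The libraries of the lines were made with different kits and scaled separately, so this order across lines was not tested.

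SERPINE2, whose product inhibits thrombin, urokinase and tissue plasminogen activator, had 424 and 420 CPM in NCI-H1944 after MPS1i and 396 and 376 CPM after DMSO. This was the smallest change called among the members (log2 0.13 ± 0.03, adjusted p = 0.00524). It was not called without DMSO replicate 2, at 0.09 ± 0.04 (adjusted p = 0.135), nor with no filter on low counts (adjusted p = 0.0717), and its adjusted p ran from 0.000437 to 0.135 over the alternatives. In NCI-H647 SERPINE2 had 165 and 160 CPM after MPS1i and 121 and 123 CPM after DMSO, a fold of 1.33 (log2 0.41 ± 0.04, adjusted p = 1.46e-06). The call in NCI-H647 held under every alternative.

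SERPINB2 (plasminogen activator inhibitor 2), an inhibitor of urokinase abundant in activated monocytes and keratinocytes, had the largest rise of the members tested in NCI-H647. It had 128 and 141 counts after MPS1i and 6 and 9 after DMSO, or 9.29 and 10.4 CPM after MPS1i and 0.313 and 0.531 CPM after DMSO. The fold was 23.3 (log2 4.54 ± 0.26, adjusted p = 1.48e-09) and rests on few control counts. In NCI-H1944 it had 18 and 10 counts after MPS1i and 6 and 0 after DMSO, which did not pass the filter. The ratio of summed counts there, scaled for depth, was 4.24, with an exact 95% interval of 1.72 to 12.5 that covers counting error only. With no filter it was not called (log2 2.05 ± 1.16, adjusted p = 0.401). In the fits that leave out 1 NCI-H1944 library it was called without DMSO replicate 1 (adjusted p = 0.0159), where its only control library had 0 counts, and not without DMSO replicate 2 (log2 1.07 ± 0.96, adjusted p = 0.495). The difference between lines was -2.51 ± 1.04 on the log2 scale with no filter (adjusted p = 0.0721), -3.46 ± 0.96 without NCI-H1944 DMSO replicate 2 (adjusted p = 0.00766) and 1.64 ± 1.68 without DMSO replicate 1 (adjusted p = 0.477), so that its sign depends on 1 library. Beside this gene, the summed leukocyte markers in NCI-H647 were 2.47 and 2.66 CPM after MPS1i and 1.04 and 0.944 CPM after DMSO, and their part in the result was not tested. Most of that sum was CD14 (30 and 31 counts after MPS1i, 11 and 12 after DMSO), which was called higher (adjusted p = 0.000394). PTPRC had 2 and 1 counts after MPS1i and 8 and 4 after DMSO.

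SERPINB1, an inhibitor of neutrophil elastase, proteinase 3 and cathepsin G, was the only member with lower means after MPS1i, and it was not called in either line. It had 209 and 195 CPM in NCI-H1944 after MPS1i and 213 and 208 CPM after DMSO, which overlap (log2 -0.06 ± 0.04, adjusted p = 0.267). Its levels in NCI-H647 were 110.5 and 117 CPM after MPS1i and 125 and 120 CPM after DMSO (log2 -0.11 ± 0.05, adjusted p = 0.0789). There it was called lower without DMSO replicate 2 (log2 -0.14 ± 0.06, adjusted p = 0.0223), and its adjusted p ran up to 0.336 over the alternatives.

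SERPINB3 and SERPINB4, known as squamous cell carcinoma antigens, differ in their targets: SERPINB3 inhibits cysteine proteases such as cathepsins L, K and S, and SERPINB4 the serine proteases cathepsin G and mast cell chymase. SERPINB3 had 501 and 526 counts in NCI-H1944 after MPS1i and 339 and 285 after DMSO, or 11.5 and 12.3 CPM after MPS1i and 8.61 and 7.28 CPM after DMSO (log2 0.58 ± 0.11, adjusted p = 0.000793). The counts in NCI-H647 were 17 and 13 after MPS1i and 14 and 16 after DMSO, and it was not called (log2 0.40 ± 0.37, adjusted p = 0.395). With so few counts a change of the size seen in NCI-H1944 was not detectable there. SERPINB4 had 49 and 59 counts in NCI-H1944 after MPS1i and 15 and 31 after DMSO. The groups did not overlap, the adjusted p was 0.0445 (log2 1.09 ± 0.38), and the call was lost in 5 alternatives. These were DESeq2 (adjusted p = 0.167), no filter on low counts (0.175), and leaving out DMSO replicate 1 (log2 0.66 ± 0.41, 0.287), MPS1i replicate 1 (log2 1.23 ± 0.48, 0.0957) or MPS1i replicate 2 (log2 0.94 ± 0.51, 0.231). Without DMSO replicate 2 its log2 fold change was 1.71. In NCI-H647 SERPINB4 had 25 and 14 counts after MPS1i and 3 and 4 after DMSO, a fold of 7.11 (log2 2.83 ± 0.50, adjusted p = 0.000209). Of 5 squamous markers, KRT6A (118 and 130 counts after MPS1i, 11 and 30 after DMSO) and KRT14 (20 and 18 after MPS1i, 0 and 0 after DMSO) were called higher in NCI-H1944, TP63 and DSG3 were not called and KRT5 was at 0. KRT14 passed the filter only through its MPS1i libraries, so it could not have been called lower. The summed level of the 5 markers, most of it KRT6A and TP63, was 5.005 and 5.75 CPM after MPS1i and 2.54 and 3.02 CPM after DMSO. In NCI-H647 they summed to 4.72 and 3.54 CPM after MPS1i and 2.61 and 3.18 CPM after DMSO, with KRT5 and DSG3 at 0, and their part in the results was not tested.

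SERPINB8, an inhibitor of the proprotein convertase furin, was called in NCI-H647 and not in NCI-H1944. In NCI-H1944 it had 56.2 and 55.4 CPM after MPS1i and 52.5 and 50.4 CPM after DMSO, which do not overlap, with log2 0.12 ± 0.05 and an adjusted p of 0.0853. The levels in NCI-H647 were 47.1 and 50.3 CPM after MPS1i and 23.1 and 23.4 CPM after DMSO, a fold of 2.10 (log2 1.07 ± 0.06, adjusted p = 9.82e-10).

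**Figure D2:**
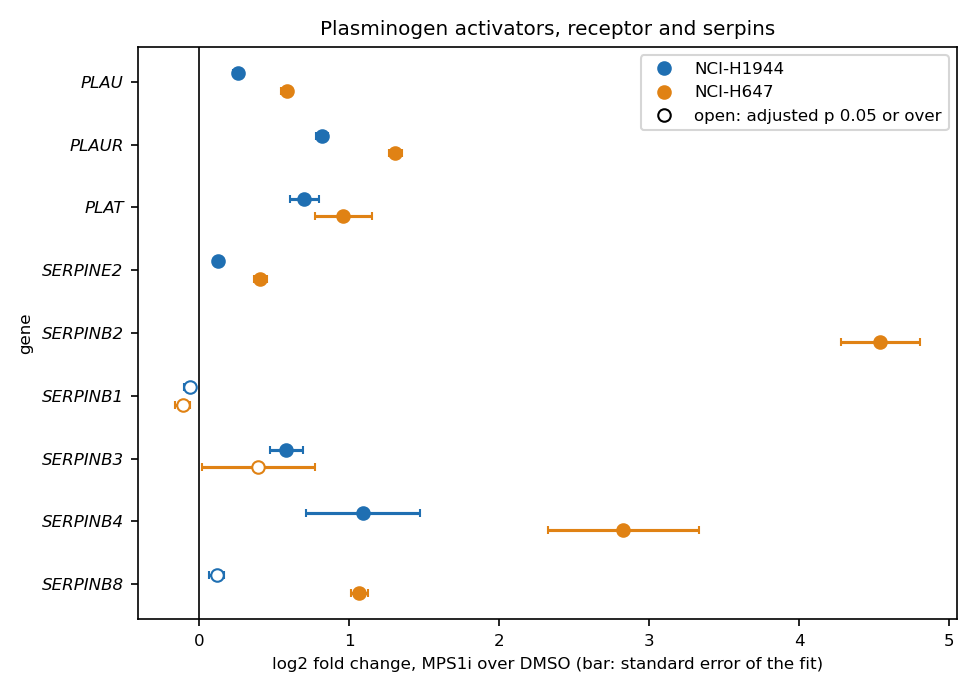
Log2 fold change of MPS1i over DMSO for each member (horizontal axis) in NCI-H1944 and NCI-H647, with the standard error of the fit; open circles had an adjusted p of 0.05 or over. PLAU, PLAUR, PLAT and SERPINE2 lie right of 0 in both lines, and SERPINB2, at 4.54 in NCI-H647, was not tested in NCI-H1944.

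Whether a change differed between the lines was tested with an interaction term in a joint fit of the 8 libraries. There 40.1% of 12887 genes were called, and 17.4% were called with a negative difference, NCI-H1944 minus NCI-H647. The lines were also made with different kits, so a difference of line and one of kit cannot be told apart here. Of the 8 members tested, 4 were called, and in each the change was smaller in NCI-H1944. The difference of log2 fold changes, NCI-H1944 minus NCI-H647, was -0.93 ± 0.09 for SERPINB8 (adjusted p = 2.35e-08) and -0.47 ± 0.05 for PLAUR (adjusted p = 1.88e-07). For PLAU it was -0.30 ± 0.05 (adjusted p = 2.22e-05) and for SERPINE2 -0.26 ± 0.05 (adjusted p = 0.000212). It was not called for PLAT (-0.24 ± 0.21, adjusted p = 0.391), SERPINB1 (0.07 ± 0.06, adjusted p = 0.356), SERPINB3 (0.21 ± 0.39, adjusted p = 0.716) or SERPINB4 (-1.74 ± 0.74, adjusted p = 0.0659). SERPINB4 was called without NCI-H1944 DMSO replicate 1 (log2 -2.17 ± 0.70, adjusted p = 0.0191) and had an adjusted p of at most 0.282 over the alternatives.

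Levels of different genes can be set against each other once divided by transcript length, here as CPM per kilobase of annotated exon. In NCI-H1944 the order after MPS1i was SERPINE2 (134), PLAU (99.2), SERPINB1 (77.1), PLAUR (60.9), SERPINB8 (11.6), PLAT (7.54), SERPINB3 (6.70), SERPINB4 (0.716) and SERPINB2 (0.149). The libraries of the neighbours PLAT and SERPINB3 overlapped. After DMSO SERPINE2 (123), PLAU (82.7), SERPINB1 (80.4) and PLAUR (34.5) led in the same order, with PLAU and SERPINB1 overlapping. In NCI-H647 after MPS1i PLAU (142) and PLAUR (114) stood above SERPINE2 (51.5) and SERPINB1 (43.4), followed by SERPINB8 (10.1), SERPINB2 (4.54), PLAT (2.06), SERPINB4 (0.814) and SERPINB3 (0.617), the last pair overlapping. After DMSO in NCI-H647 PLAU (94.7) led, then SERPINB1 (46.7), PLAUR (45.9) and SERPINE2 (38.8), with SERPINB1 and PLAUR overlapping. SERPINB2, next after SERPINB8 in NCI-H647 after MPS1i, stood at 0.194 CPM per kilobase after DMSO there.

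The clade B serpins fall in 2 clusters, and the members were followed along them with 8 other clade B genes. On chromosome 18 the genes run in the order SERPINB5, SERPINB12, SERPINB13, SERPINB4, SERPINB11, SERPINB3, SERPINB7, SERPINB2, SERPINB10 and SERPINB8. SERPINB12, SERPINB13, SERPINB11 and SERPINB10 had at most 1 count in any library of either line. Among the 4 tested genes outside the members, 2 were higher and none lower in NCI-H1944 (median log2 0.42, against 0.0011 over all genes tested), and 2 were higher and 1 lower in NCI-H647 (median 0.22, against 0.0054). Over all genes tested 13.6% were called higher and 12.4% lower in NCI-H1944, and 27.3% higher and 27.0% lower in NCI-H647. SERPINB7, a serpin of epidermis that lies between SERPINB3 and SERPINB2, had 37 and 31 counts after MPS1i and 9 and 6 after DMSO in NCI-H1944 (log2 2.03 ± 0.50, adjusted p = 0.00623), a call lost without MPS1i replicate 1 (log2 1.90 ± 0.71, adjusted p = 0.0808). NCI-H647 libraries had 39 and 58 counts after MPS1i and 8 and 3 after DMSO (log2 3.51 ± 0.41, adjusted p = 3.81e-06). In both lines SERPINB7 passed the filter only through its MPS1i libraries. SERPINB5 (maspin), at the cluster's edge, was not called in either line. On chromosome 6 SERPINB9, the inhibitor of granzyme B, rose in NCI-H1944 (log2 0.62 ± 0.06) and in NCI-H647 (log2 0.44 ± 0.05), between SERPINB1, which was not called, and SERPINB6. SERPINB6 was called lower in NCI-H647 (log2 -0.14 ± 0.05, adjusted p = 0.0208), a call that DESeq2 (adjusted p = 0.0941), scaling by totals (0.114), and leaving out DMSO replicate 1 (0.172) or MPS1i replicate 1 (0.0978) did not make.

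**Figure D3:**
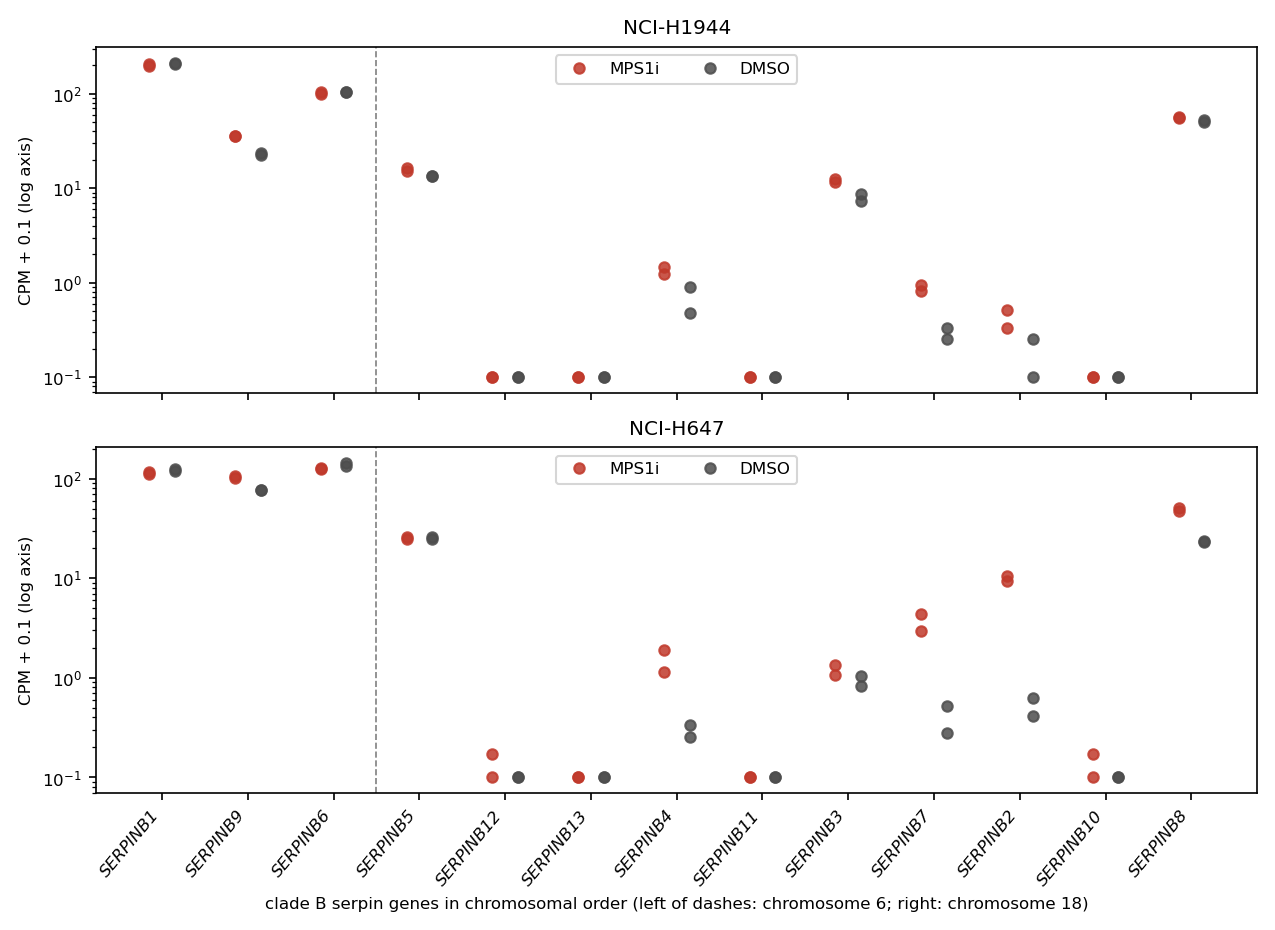
CPM plus 0.1 on a log axis for the clade B serpin genes in chromosomal order, with each library as a point, for NCI-H1944 (top) and NCI-H647 (bottom); the dashed line parts chromosome 6 from chromosome 18. Points at 0.1 are genes with no counts. In NCI-H647 SERPINB9, SERPINB4, SERPINB3, SERPINB7, SERPINB2 and SERPINB8 have both MPS1i points above both DMSO points while SERPINB5 does not. SERPINB3 was not called there, and 76.3% of genes tested in NCI-H647 had groups that did not overlap, in either direction.

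Other genes of the plasminogen system did not all move the same way. PLG, the gene of plasminogen itself, which is made mainly by the liver, had at most 2 counts in any library. Of the 19 genes in this list 13 were tested in NCI-H1944, with 7 higher and 1 lower (median log2 0.24). In NCI-H647 9 were tested, with 4 higher and 4 lower (median log2 -0.21), against the medians over all genes given above. The shares over all genes were 13.6% higher and 12.4% lower in NCI-H1944, and 27.3% higher and 27.0% lower in NCI-H647. CPB2, described below, is among the 7 higher in NCI-H1944 and passed the filter only through its MPS1i libraries.

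ANXA2 and S100A10, whose products form a complex that binds plasminogen and tissue plasminogen activator at the cell surface, were called in opposite directions in the lines. ANXA2 had 1426 and 1475 CPM in NCI-H1944 after MPS1i and 1295 and 1277 CPM after DMSO (log2 0.17 ± 0.02, adjusted p = 1.41e-05). Its NCI-H647 levels were 1079 and 1098 CPM after MPS1i and 1534 and 1490 CPM after DMSO (log2 -0.47 ± 0.03, adjusted p = 2.51e-09). The difference between the lines was 0.67 ± 0.05 (adjusted p = 8.02e-11). S100A10, named after its values were seen, had log2 changes of 0.16 ± 0.03 in NCI-H1944 and -0.21 ± 0.04 in NCI-H647, with a difference of 0.40 ± 0.05 (adjusted p = 2.48e-07). Opposite calls in the lines were made for 3.12% of genes tested in both. ENO1, a glycolytic enzyme that also binds plasminogen, fell by 0.18 ± 0.02 on the log2 scale in NCI-H1944 and by 0.39 ± 0.03 in NCI-H647. ANXA2 and ENO1 have processed pseudogenes that can share their reads. SPINT1, an inhibitor of matriptase and of the activator of hepatocyte growth factor, rose in NCI-H1944 (log2 0.30 ± 0.07) and in NCI-H647 (log2 1.12 ± 0.08). VTN (vitronectin), a matrix protein that binds the urokinase receptor, had 1103 and 1155 counts after MPS1i and 536 and 458 after DMSO in NCI-H1944 (log2 1.05 ± 0.09, adjusted p = 1.23e-07) and at most 2 counts in NCI-H647. CPB2, a carboxypeptidase that protects fibrin from plasmin, had 11 and 11 counts after MPS1i and 0 and 0 after DMSO in NCI-H1944. The ratio would be 6.67-fold if 3 counts summed over the DMSO libraries are taken as the limit that 0 allows by counting error. The MPS1i counts are taken as exact here, so this is not a full lower limit.

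**Figure D4:**
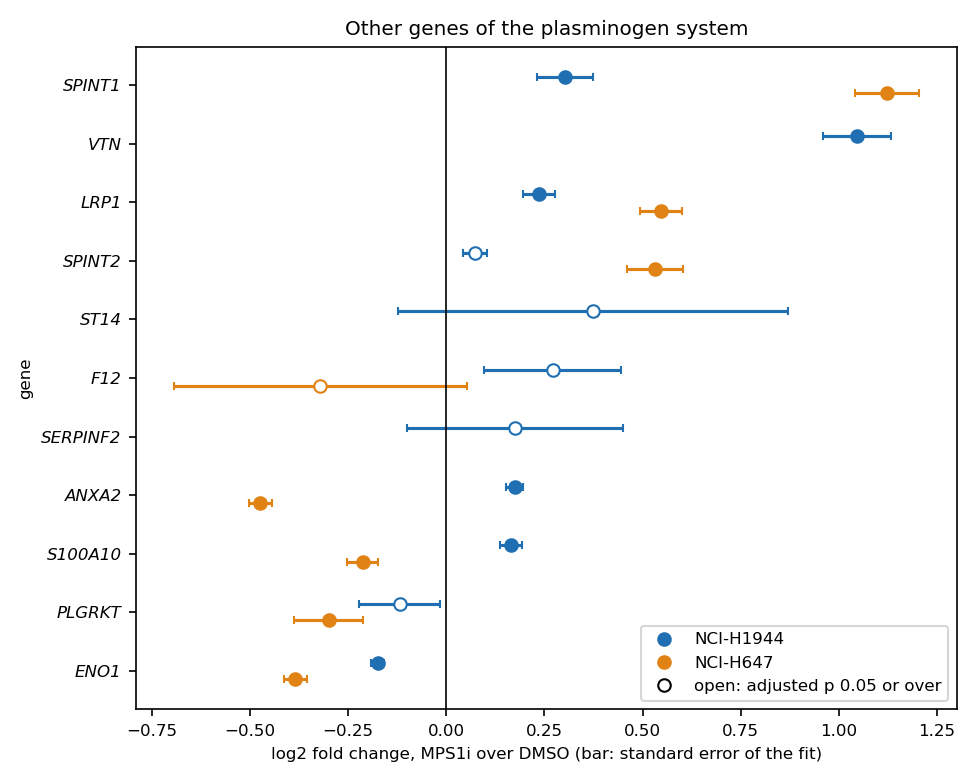
Log2 fold change of MPS1i over DMSO (horizontal axis) with the standard error of the fit, for other plasminogen system genes reported here and tested in NCI-H1944 or NCI-H647; open circles had an adjusted p of 0.05 or over, and CPB2, at 0 in DMSO, is left out. SPINT1 lies at 0.30 in NCI-H1944 and 1.12 in NCI-H647, and ANXA2 lies right of 0 in NCI-H1944 and left of 0 in NCI-H647.

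Proteases that the member serpins inhibit were read from a list of 10. In NCI-H1944 7 were tested, with 2 higher and none lower (median log2 0.10), and in NCI-H647 5 were tested, with 4 higher and none lower (median log2 0.87). Over all genes 13.6% were higher and 12.4% lower in NCI-H1944, and 27.3% higher and 27.0% lower in NCI-H647. CTSS (cathepsin S), a target of SERPINB3, rose by a log2 of 1.32 ± 0.10 in NCI-H1944 and 1.92 ± 0.07 in NCI-H647, and CTSL (cathepsin L) by 0.35 ± 0.02 and 0.87 ± 0.06 in the same lines. CTSK (cathepsin K) had 52 and 38 counts after MPS1i and 20 and 16 after DMSO in NCI-H647 (log2 1.72 ± 0.30, adjusted p = 0.000177) and was not called in NCI-H1944 (adjusted p = 0.587). FURIN, the target of SERPINB8, was called higher in NCI-H647 (log2 0.26 ± 0.06, adjusted p = 0.00127), though not by DESeq2 (adjusted p = 0.0597). In NCI-H1944 its log2 fold change was -0.09 ± 0.03 (adjusted p = 0.0554), and it was called lower when scaled by totals (0.0310) or with a replicate block (0.0329). PRTN3 (proteinase 3), a target of SERPINB1, had 69 and 58 counts after MPS1i and 81 and 75 after DMSO in NCI-H1944 and was not called (log2 -0.43 ± 0.25, adjusted p = 0.225), and it had 0 counts in NCI-H647. ELANE, CTSG and CMA1, further targets of SERPINB1 and SERPINB4 made by neutrophils and mast cells, had at most 11 counts in any library.

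Serpins of the other clades were often without counts, with 11 of 20 at 0 in NCI-H1944 and 7 of 20 in NCI-H647. Of 6 tested in each line, 3 were higher in NCI-H1944 (median log2 0.41) and 5 in NCI-H647 (median log2 1.13), and none was lower. Among all genes 13.6% were higher and 12.4% lower in NCI-H1944, and 27.3% higher and 27.0% lower in NCI-H647. SERPING1, the C1 inhibitor of complement, had 63 and 45 counts in NCI-H1944 after MPS1i and 3 and 5 after DMSO (log2 3.58 ± 0.51, adjusted p = 5.22e-05). The counts in NCI-H647 were 11 and 18 after MPS1i and 5 and 5 after DMSO (log2 1.91 ± 0.47, adjusted p = 0.00306), a call lost with DESeq2 (adjusted p = 0.0649) and without MPS1i replicate 2 (log2 1.49 ± 0.67, adjusted p = 0.0989). SERPIND1 (heparin cofactor II), a thrombin inhibitor, had 70 and 51 counts after MPS1i and 6 and 7 after DMSO in NCI-H647 (log2 3.59 ± 0.35, adjusted p = 5.05e-07) and 0 in every NCI-H1944 library. SERPING1 in both lines and SERPIND1 in NCI-H647 passed the filter only through their MPS1i libraries. SERPINA1 (alpha-1 antitrypsin), the main inhibitor of neutrophil elastase in plasma, rose by a log2 of 0.87 ± 0.16 in NCI-H1944 and 1.04 ± 0.13 in NCI-H647.

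Genes whose pattern was most like that of a member were sought among 12879 other genes tested in both lines, by the Euclidean distance of log2 CPM centred within each line over the 8 libraries. For PLAUR they were NFKBIZ, an atypical member of the inhibitor of NF-kB family (distance 0.155), and RND3, a small GTPase (0.164). For PLAU they were GRPEL1 (0.0498) and KLF10 (0.0502), for PLAT MAP3K8 (0.170) and CHMP5 (0.214), and for SERPINE2 PPTC7 (0.0613) and CDC42SE1 (0.0659). For SERPINB8 they were SLC26A6 (0.106) and TPBG (0.120), for SERPINB1 SELENOI (0.0529) and ATP5F1E (0.0578), and for SERPINB3 PSD4 (0.193) and TCEAL9 (0.227). SERPINB4 had no gene as close, with FCMR at 0.749 and PDGFRL at 0.777. SERPINB4 had at most 59 counts in a library, where counting error adds to such a distance, and its part was not tested. For the nearest gene of each of these members, log2 changes are given for NCI-H1944 and then NCI-H647. They were 0.90 and 1.39 for NFKBIZ, 0.26 and 0.55 for GRPEL1, and 0.73 and 0.93 for MAP3K8. For PPTC7 they were 0.13 and 0.43, for SLC26A6 0.12 and 1.12, and for SELENOI -0.08 and -0.07. PSD4 had 0.59 and 0.28, and FCMR 0.82 and 2.32. All these genes were picked by distance over the same libraries, so changes near those of their members follow from the choice.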

How the data were processed

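Gene expression was measured by RNA sequencing. Per the labels' protocols, both kits were stranded, with poly(A) selection for NCI-H1944 and removal of ribosomal RNA for NCI-H647. The authors deposited raw counts per gene, as whole numbers, in a table for each line. STAR, HISAT2, featureCounts, StringTie, cutadapt, Trim Galore, Trimmomatic and GRCh38 appear in the submitters' processing notes. Their versions and roles, and whether counting used strand, were not given in the sources used here, so counts of overlapping genes and close copies are uncertain. The deposited Length column is the genomic span of a gene and was not used to scale levels.

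Groups follow the line and treatment in the sample titles, with 2 libraries per group and from 13358514 to 43661342 counts per library. The labels do not say whether replicates were separate cultures, and the p-values then measure no more than the spread between these libraries, which may be technical. The chi-square per degree of freedom between replicates ran from 1.97 to 3.92, so none was a copy of another.

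Each line was fitted alone in R 4.3.3 with edgeR 4.0.16 (filterByExpr with a minimum count of 10 and a minimum total of 15, TMM scaling, quasi-likelihood F test, two-sided), with Benjamini-Hochberg adjustment over all genes tested and a threshold of 0.05. To compare the lines, an interaction term was fitted to all 8 libraries for genes kept by the filter in each line, joined by symbol. Standard errors are the absolute log2 fold change over the square root of F. The fits were tested on simulated counts. DESeq2 1.42.0 was an alternative. Exonic lengths came from the GENCODE 29 basic set (GRCh38). The members and gene lists were chosen with earlier results of these data known.

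The text names all members, PLG and TTK whatever their outcome, and from each further list and line up to 4 called genes with the smallest adjusted p, and for each member the 2 genes nearest in pattern. Cell type markers, S100A10, CPB2, PRTN3, SERPINB5, the genes that overlap a member and the genes named for having almost no counts lie outside that rule and were named after their values were seen. Some genes that the rule or the marker lists hold are not reported here by name, but they remain in the counts, sums and medians of their lists.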

Additional observations from a re-analysis of the deposited data

Results flagged for a closer look

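Changes that differed between the lines by the interaction test are listed as NCI-H1944 minus NCI-H647 on the log2 scale, and no cause was tested. Each line had its own library kit, so line and kit cannot be told apart. Among the members these were SERPINB8 (-0.93 ± 0.09, adjusted p = 2.35e-08), PLAUR (-0.47 ± 0.05, adjusted p = 1.88e-07), PLAU (-0.30 ± 0.05, adjusted p = 2.22e-05) and SERPINE2 (-0.26 ± 0.05, adjusted p = 0.000212). In each, all MPS1i libraries were above all DMSO libraries in both lines, and the change was smaller in NCI-H1944. Groups that did not overlap, in either direction, were seen for 61.0% of genes tested in NCI-H1944 and 76.3% in NCI-H647. SERPINB8 was not called in NCI-H1944 (adjusted p = 0.0853).

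Among the other genes named, the change was less positive in NCI-H1944 for SPINT1 (-0.80 ± 0.11), CTSL (-0.50 ± 0.06), CTSS (-0.58 ± 0.12), CTSK (-1.38 ± 0.46, adjusted p = 0.0212) and FURIN (-0.32 ± 0.06). It was less negative or more positive in NCI-H1944 for ANXA2 (0.67 ± 0.05), S100A10 (0.40 ± 0.05), ENO1 (0.23 ± 0.05) and SERPINB9 (0.20 ± 0.08, adjusted p = 0.0478). The call of SERPINB9 was lost when scaled by median-of-ratios size factors (0.18, adjusted p = 0.0818), when scaled by totals (0.12, adjusted p = 0.243), with DESeq2 (adjusted p = 0.169), with no filter on low counts (0.0705) and with a replicate block (0.0721). It was also lost without any 1 library of NCI-H1944, and without NCI-H647 DMSO replicate 1 or MPS1i replicate 1, with adjusted p-values from 0.0577 to 0.155. The call of CTSK was lost with DESeq2 (-1.41, adjusted p = 0.0697) and without NCI-H1944 DMSO replicate 2 (adjusted p = 0.0507) or MPS1i replicate 2 (0.0516), or NCI-H647 DMSO replicate 1 (0.0613), DMSO replicate 2 (0.0830) or MPS1i replicate 1 (0.117).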

How the results depend on the processing

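Of the members' changes recomputed under the alternatives, 65 of 72 in NCI-H1944, 80 of 81 in NCI-H647 and 102 of 104 between the lines kept their direction and their side of the threshold. The exceptions in each line are given beside the genes above. Between the lines, the difference of SERPINB1 changed sign when scaled by library totals (-0.011, adjusted p = 0.893) and SERPINB4 was called without NCI-H1944 DMSO replicate 1. The cause was not tested. The number of genes called in NCI-H1944 was 2325 with no low-count filter, where 24972 genes were tested, against 4346 of 16738, and in NCI-H647 it was 5446 with DESeq2 against 8184. Leaving out 1 library at a time gave from 3335 to 3732 calls in NCI-H1944, from 6922 to 7395 in NCI-H647 and from 4185 to 4978 for the difference between lines, with 5 to 6, 7 to 8 and 4 to 5 members called. In those fits the lone library of a group was assumed to vary like the others. Scaling by totals moved the share of higher calls in the difference between lines to 40.9%, against 56.6%. Replicate numbers were not shown to pair libraries, with correlations of same-numbered deviations of 0.044 in NCI-H1944 and 0.0026 in NCI-H647. With a replicate block 4817, 8434 and 5208 genes were called in NCI-H1944, NCI-H647 and the difference between lines, and 6, 7 and 4 members. Depth limits SERPINB2 and SERPINB4 in NCI-H1944 and SERPINB3 and SERPINB4 in NCI-H647, which had under 60 counts in each library.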
